A study of Mus musculus with 2 samples.

Results

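Isolated H3K56ac intervals are the places in the deposited interval list of mouse embryonic stem cells where an interval of acetylated histone H3 lysine 56 (H3K56ac) stood alone, with no other interval nearby. They were chosen by spacing. An autosomal interval was a member when every other interval lay at a gap of at least 12500 bp, the gap being the number of bp between the end of an interval and the start of the next. By this rule 9083 of the 90241 autosomal intervals were isolated, which is 10.1% (95% exact binomial interval 9.87 to 10.3, counting error only), and the remaining 81158 formed 12257 joined clusters of 2 or more. The share was 15.7% when intervals less than 500 bp apart were first merged, so that it depends on how finely clustered signal was divided into intervals. The whole list holds 92549 intervals, of which 2308 lie outside chromosomes 1 to 19 and were not used. Some of these lie on a sequence whose name is not that of a mouse chromosome. Spacing was the measured value that chose the members, so that their gaps are given as a description. Of the 9083, 20 were the first or the last interval of their chromosome and had a neighbour on only 1 side.

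The study is a chromatin immunoprecipitation and sequencing (ChIP-seq) experiment on E14Tg2a, a mouse embryonic stem cell line that grows without feeder cells, and its title relates H3K56ac to the pluripotency factor Oct4. The H3K56ac group is 1 library of this line, for which the labels name no genetic change or treatment, grown with fetal bovine serum and leukaemia inhibitory factor, fixed with formaldehyde and sonicated before precipitation with an H3K56ac antibody. The labels also list 1 library of input DNA from the same line, which was not analysed here. With 1 library there is no replicate, no condition is compared, and all errors describe the list itself. An interval list holds no expression values, so the labelled cell type could not be checked against its markers.

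Lysine 56 lies in the globular core of histone H3, where the DNA enters and leaves the nucleosome, rather than in the flexible tail that carries most of the well known acetylation marks. In yeast the mark is placed on newly made H3 and takes part in nucleosome assembly behind the replication fork. In mammalian cells it is deposited by the acetyltransferases CBP and p300, with histone chaperones such as ASF1 presenting the substrate, and it has been linked to active regulatory regions and to the network of pluripotency factors in embryonic stem cells. Many acetylated regulatory regions are broad or lie in groups, as at strong enhancers, whereas isolated intervals are by definition the part of the list without such neighbours.

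Isolated intervals made up a large part of the separate places marked in the list but a small part of its bases. Counting each joined cluster once, the autosomes held 21340 separate places, and 42.6% of these were an isolated interval. In bases the isolated intervals covered 927 kb of 16560 kb, or 5.60%.

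The isolated intervals were narrow, and wide ones among them were rare. Their mean width was 102 bp, against 193 bp for clustered intervals, which were 1.89 times as wide on average. The median was 100 bp in both sets, but on 6 of the 19 autosomes it was 50 bp for isolated intervals and 100 bp for clustered ones. Among isolated intervals 4483 were 50 bp wide, the smallest width in the list, which is 49.4% of them (48.3 to 50.4), while among clustered intervals the share was 28.3% (28.0 to 28.7). A further 2711 isolated intervals were 100 bp wide (29.8%) and 1817 were between 150 and 450 bp (20.0%). Only 72 reached 500 bp or more, 0.793% (0.621 to 0.997) against 7.79% of clustered intervals, a 9.83-fold lower share. Just 5 isolated intervals reached 1000 bp, where the clustered set had 1429. The list holds neither read counts nor scores, so whether narrow isolated intervals are acetylated sites or calls near the threshold of the caller was not tested.

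**Figure D1:**
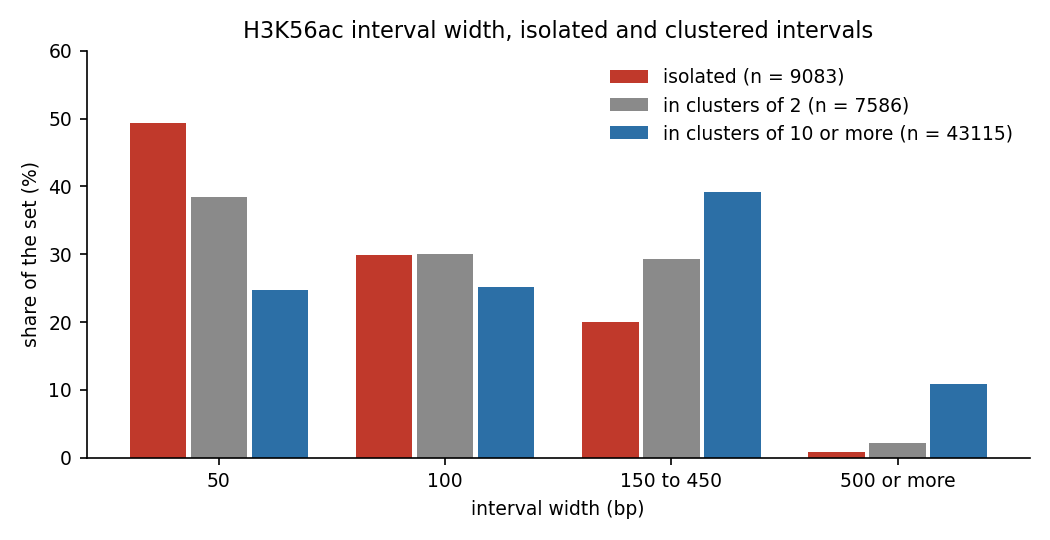
Share of intervals (%) in 4 width classes (bp) for isolated intervals, intervals in joined clusters of 2 and intervals in joined clusters of 10 or more, in 1 library. The 50 bp class falls from 49.4% in isolated intervals to 24.8% in large clusters, and the class of 500 bp or more rises from 0.793% to 10.8%.

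Width was not used by the rule, and its difference between isolated and clustered intervals was the same in direction on every autosome. Width may still depend on spacing, since the smallest gap between autosomal intervals was 0.15 kb on a grid of 50 bp. Whether closer calls had been joined into wider intervals is not known and was not tested. Chromosome 13 had the lowest mean width of isolated intervals, 98.0 bp, and chromosome 11 the highest, 109 bp, with a mean of 102 ± 3.44 bp (SD, 19 chromosomes). For clustered intervals the extremes were 172 bp (chromosome 5) and 212 bp (chromosome 18), with a mean of 193 ± 10.3 bp. The ranges did not overlap: the chromosome with the widest isolated intervals was still below the chromosome with the narrowest clustered ones. The share of 50 bp intervals ranged from 44.6% on chromosome 9 to 57.4% on chromosome 19 for isolated intervals and from 26.0% to 29.9% for clustered ones, again without overlap. Chromosomes come from the same library and share its calling threshold, so they are not replicates and no test was made over them.

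Seen from the side of width, the share that stood alone dropped at each step. Of the intervals of 50 bp, 16.3% (15.9 to 16.8) were isolated, and of those of 100 bp, 10.9% (10.6 to 11.3). The share was 7.34% at 150 bp, 5.90% at 200 bp, 4.85% between 250 and 300 bp and 3.66% between 350 and 450 bp. It was 1.35% (1.05 to 1.71) between 500 and 950 bp, and 0.349% (0.113 to 0.812) at 1000 bp or more. No width class broke the order.

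Between isolated intervals and large clusters lay a graded series. Intervals in clusters of 2 had a mean width of 127 bp with 38.5% at 50 bp, those in clusters of 3 averaged 141 bp with 34.0% at 50 bp, and those in clusters of 4 to 9 averaged 167 bp with 30.0% at 50 bp. Members of clusters of 10 or more averaged 226 bp, and 24.8% of them were 50 bp wide. Width also differed by position inside a cluster. The outermost intervals of clusters of 3 or more, which have an empty stretch on 1 side as isolated intervals have on both, averaged 138 bp, whereas intervals inside clusters averaged 218 bp. Large clusters make up more of the inside intervals than of the outermost ones. Position and cluster size cannot be told apart in these 2 means, and position was not compared within a size class. Isolated intervals had the lowest mean width of all these sets.

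The distance at which the rule cuts left no visible step in width. Isolated intervals just inside it, with the nearest neighbour at 12500 bp or more but below 13000 bp, numbered 251 and averaged 114 bp, with 44.2% at 50 bp. Intervals just outside, with the nearest neighbour at 12000 bp or more but below 12500 bp, numbered 275 and averaged 110 bp, with 45.5% at 50 bp. Across the whole autosomal list, mean width was 254 bp for intervals whose nearest neighbour was less than 0.5 kb away and 169 bp for gaps from 0.5 kb to below 1 kb. It was 122 bp from 1 to below 2.5 kb, 111 bp from 2.5 to below 5 kb and 105 bp from 5 to below 12.5 kb. Most of the fall in width therefore took place within the first few kb, well inside the distance of the rule, and the clustered intervals of the last class were nearly as narrow as the isolated ones.

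Past the rule's distance the width of isolated intervals changed little. It averaged 104 bp for nearest gaps of 12.5 to below 25 kb (3960 intervals), 103 bp from 25 to below 50 kb (2520), 99.6 bp from 50 to below 100 kb (1425), 96.3 bp from 100 to below 250 kb (809) and 94.0 bp at 250 kb or more (369). The share at 50 bp stayed between 48.5% and 52.0% in these 5 classes. Across the 9083 isolated intervals the rank correlation of width with the nearest gap was -0.025, and across the 81158 clustered intervals it was -0.33; the points share a library and a 50 bp grid, and the values are a description. The more remote isolated intervals were therefore only slightly narrower on average than those near the distance of the rule.

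**Figure D2:**
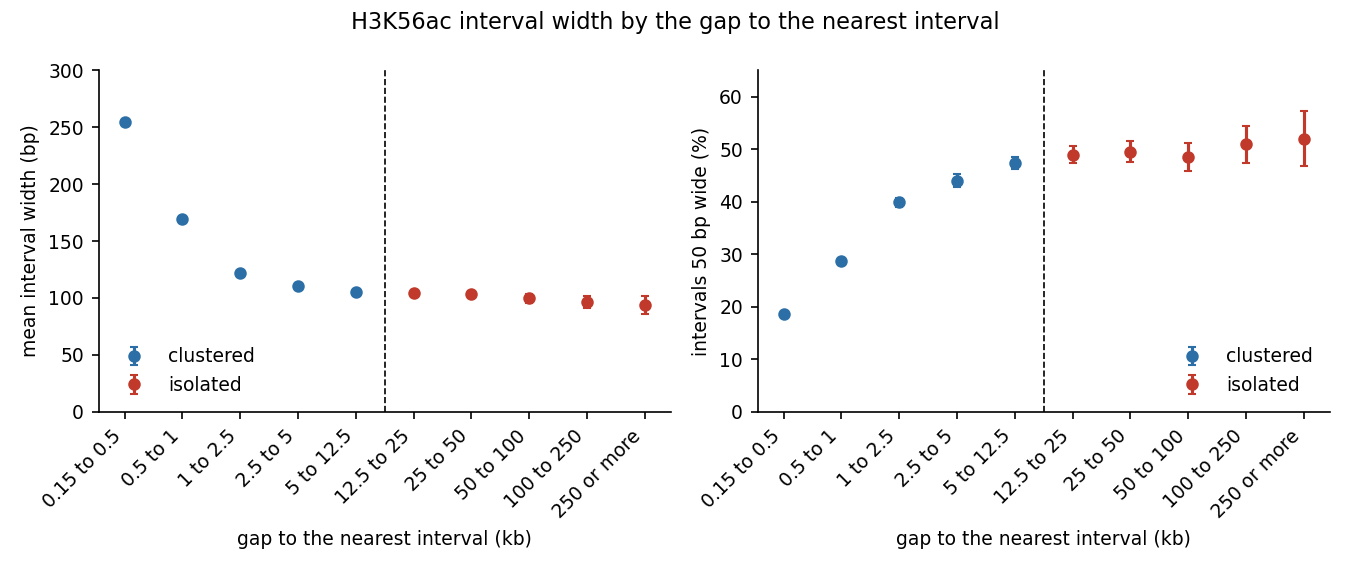
Mean interval width (bp, left) and share of intervals 50 bp wide (%, right) in 10 classes of the gap to the nearest interval (kb), for autosomal intervals of 1 library. Bars are 95% intervals that treat intervals as independent, and the dashed line marks the distance of the rule. Mean width falls from 254 bp to 105 bp left of the line and lies between 94.0 and 104 bp to the right of it.

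The isolated intervals of 500 bp or more lay at distances from other intervals that largely overlapped those of the narrow ones. The 72 lay on 18 of the 19 autosomes, all but chromosome 12. Their nearest neighbour was at a median of 24.7 kb (quartiles 17.0 and 39.7 kb), against 28.9 kb (18.1 and 57.9 kb) for the 4483 isolated intervals of 50 bp. The nearest joined cluster was at a median of 35.4 kb for the wide ones and 49.8 kb for the 50 bp ones, with quartiles of 21.2 and 84.1 kb and of 23.0 and 120 kb. In the same 1 Mb bin as the interval, the median number of other intervals was 39.5 for the wide and 40 for the 50 bp ones.

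The 5 widest isolated intervals came from 5 different chromosomes, and their positions are given in mm9, the build named in the submitters' processing notes. On chromosome 8 the interval from 121828251 to 121829350 was 1100 bp wide, with gaps of 362 kb before it and 52.2 kb after it. An interval of the same width on chromosome 19 (56622251 to 56623350) had gaps of 25.6 and 18.8 kb, and its nearest joined cluster, 25.6 kb away, held 11 intervals. On chromosome 7 an interval of 1050 bp (6106601 to 6107650) followed an empty stretch of 1029 kb and lay 16.6 kb before a cluster of 14 intervals. Another of 1050 bp on chromosome 18 (24811501 to 24812550) had gaps of 48.8 and 13.4 kb, the second just past the distance of the rule. The fifth was 1000 bp wide on chromosome 4, from 3344151 to 3345150, 13.6 kb after a cluster of 2. Each of these 5 had another interval at 52.25 kb or less on at least 1 side, and their gene context was not analysed here.

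Most isolated intervals lay within reach of other intervals. The gap to the nearer neighbour had a median of 28.8 kb (quartiles 17.9 and 57.0 kb), and that to the farther neighbour a median of 77.5 kb (39.8 and 190.2 kb). For 5123 (56.4%) the nearer neighbour was at least 25 kb away, for 1178 (13.0%) at least 100 kb, for 145 (1.60%) at least 500 kb and for 27 (0.297%) at least 1000 kb. On the farther side, 389 bordered an empty stretch of at least 1000 kb.

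The nearest joined cluster lay farther from an isolated interval than from another joined cluster. The median distance was 47.8 kb (quartiles 22.6 and 116 kb) from the 9083 isolated intervals and 26.9 kb (16.9 and 56.5 kb) from the 12257 joined clusters, where both distances are at least 12.5 kb by the rule. Within 50 kb, 51.4% of isolated intervals (50.4 to 52.5) had a joined cluster, against 71.7% of joined clusters that had another. Clusters of 2, the set most like the isolated intervals, were in between with a median of 37.4 kb to the nearest other joined cluster. The median for isolated intervals ranged from 33.9 kb on chromosome 4 to 66.3 kb on chromosome 18, and on each of the 19 autosomes it was longer than that for joined clusters. These distances derive from the spacing that chose the members and carry no test.

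**Figure D3:**
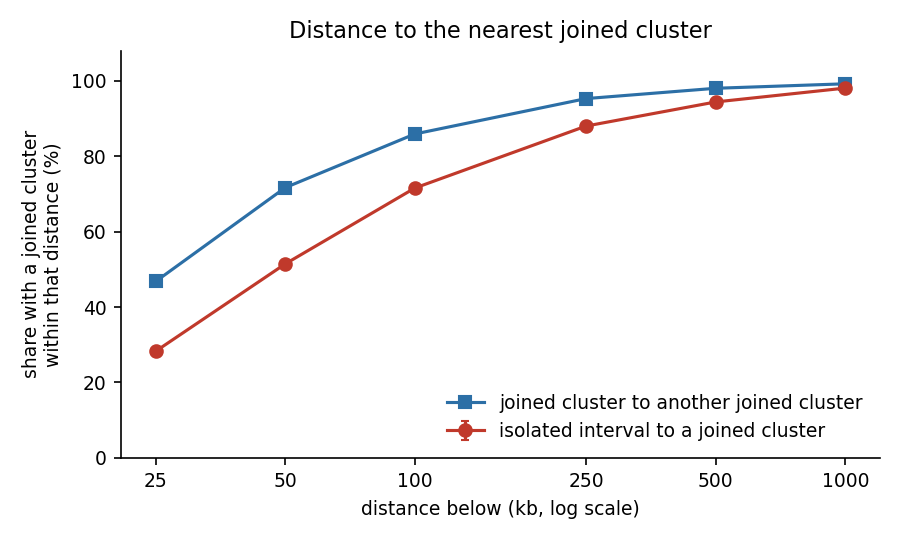
Share (%) of isolated intervals and of joined clusters with a joined cluster (another one, for clusters) at less than the distance on the x axis (kb, log scale), in 1 library. Bars on the isolated points are 95% exact binomial intervals, smaller than the symbols. The isolated curve runs below the other, with 51.4% against 71.7% at 50 kb and 98.1% against 99.2% at 1000 kb.

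The joined clusters nearest to isolated intervals were mostly small, as were joined clusters in general. Counted once for each isolated interval, the nearest clusters held a median of 3 intervals (quartiles 2 and 6) and 450 bp of interval sequence. All joined clusters, each counted once, had a median of 4 intervals (2 and 7) and 500 bp. A cluster of 10 or more intervals lay within 100 kb of 1911 isolated intervals (21.0%), and the median distance to such a cluster was 383 kb. For joined clusters, 37.6% had another cluster of 10 or more within 100 kb, and the median distance was 178 kb. Clusters of this size were 16.8% of all joined clusters. Seen from the clusters, those with an isolated interval next to them on both sides (1937) held 10 or more intervals in 8.16% of cases, those with 1 on 1 side (5528) in 14.8% and those with none (4792) in 22.5%.

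Of the neighbours of isolated intervals, 48.2% were themselves isolated, beside the 42.6% that isolated intervals make up of all separate places. In 2200 cases (24.2%) both neighbours were isolated too, in 4344 (47.8%) 1 neighbour was, and 2539 (28.0%) stood between joined clusters or at a chromosome's end. Their mean widths were alike, at 101, 103 and 102 bp. Runs of 5 or more isolated intervals in a row numbered 273, held 1669 of the 9083 (18.4%) and spanned a median of 610 kb. The longest run, named after its length was seen, was of 15 isolated intervals over 3427 kb on chromosome 15, from 89350751 to 92778200, and its intervals averaged 93.3 bp.

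The 5 isolated intervals with the largest gap to their nearer neighbour were 50 or 100 bp wide, as were 79.2% of all isolated intervals. Of the 369 with a nearest gap of 250 kb or more, 3 were 500 bp or wider, or 0.813% (0.168 to 2.36), against 0.793% of all isolated intervals. That share was 0.909% for nearest gaps of 12.5 to below 25 kb and 0.992% from 25 to below 50 kb. It was lower, 0.351%, from 50 to below 100 kb and 0.371% from 100 to below 250 kb. On chromosome 7 an interval of 50 bp (10609301 to 10609350) stood 3357 kb after the previous interval and 2399 kb before the next. An interval of 50 bp on chromosome 4 (37614501 to 37614550) had gaps of 2114 and 1887 kb. On chromosome 15 an interval of 100 bp (49061501 to 49061600) had gaps of 2033 and 1641 kb. The remaining pair lay on chromosome 1, one of 50 bp (48709551 to 48709600) with gaps of 1639 and 1984 kb and one of 100 bp (28679851 to 28679950) with gaps of 2165 and 1625 kb. Each was the only interval of its 1 Mb bin. Mappability was not examined, so a stretch without intervals cannot be read as a stretch without the mark.

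The density of isolated intervals varied less between chromosomes than that of clustered intervals. It was 3.79 ± 0.436 per Mb (SD, 19 autosomes), over the stretch of each chromosome that the list spans, and ranged from 3.19 per Mb on chromosome 3 (95% exact Poisson interval 2.91 to 3.48) to 4.53 on chromosome 19 (4.00 to 5.11), a 1.42-fold span. Clustered intervals ranged from 21.0 per Mb on chromosome 3 to 57.2 on chromosome 11, a 2.73-fold span, and joined clusters from 3.54 to 7.70 per Mb, a 2.17-fold span. The SD of the isolated density was 11.5% of its mean, against 28.2% for clustered intervals and 20.3% for joined clusters. Counting error alone would give 4.70% on average for the isolated intervals. The rule bears on this comparison, since a further interval within its distance of a member turns that member into a clustered interval. How much of the difference in spread comes from the rule was not tested. Chromosomes next to each other in the order of isolated density, such as 19, 5, 9 and 13 at the top (4.53, 4.40, 4.30 and 4.29 per Mb), had intervals that overlap.

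The isolated share was high on chromosomes with few clustered intervals and low on those with many. The share was highest on chromosome 13, at 16.7% (15.4 to 18.1), next on chromosome 3 at 13.2% (12.1 to 14.3), and lowest on chromosome 11, at 6.85% (6.28 to 7.46). Chromosome 13 combined the second lowest density of clustered intervals, 21.4 per Mb, with an isolated density of 4.29 per Mb. On chromosome 11 the isolated density was nearly the same, 4.21 per Mb, beside 57.2 clustered intervals per Mb. Across the 19 autosomes the isolated share and the clustered density had a Pearson correlation of -0.87 (Spearman -0.92, and Pearson -0.85 without chromosomes 11 and 3), and the share holds the clustered count in its denominator. Isolated density and clustered density had a Pearson correlation of 0.54 (Spearman 0.56, and Pearson 0.44 without the same 2 chromosomes). These values describe chromosomes of 1 library that share depth and threshold.

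**Figure D4:**
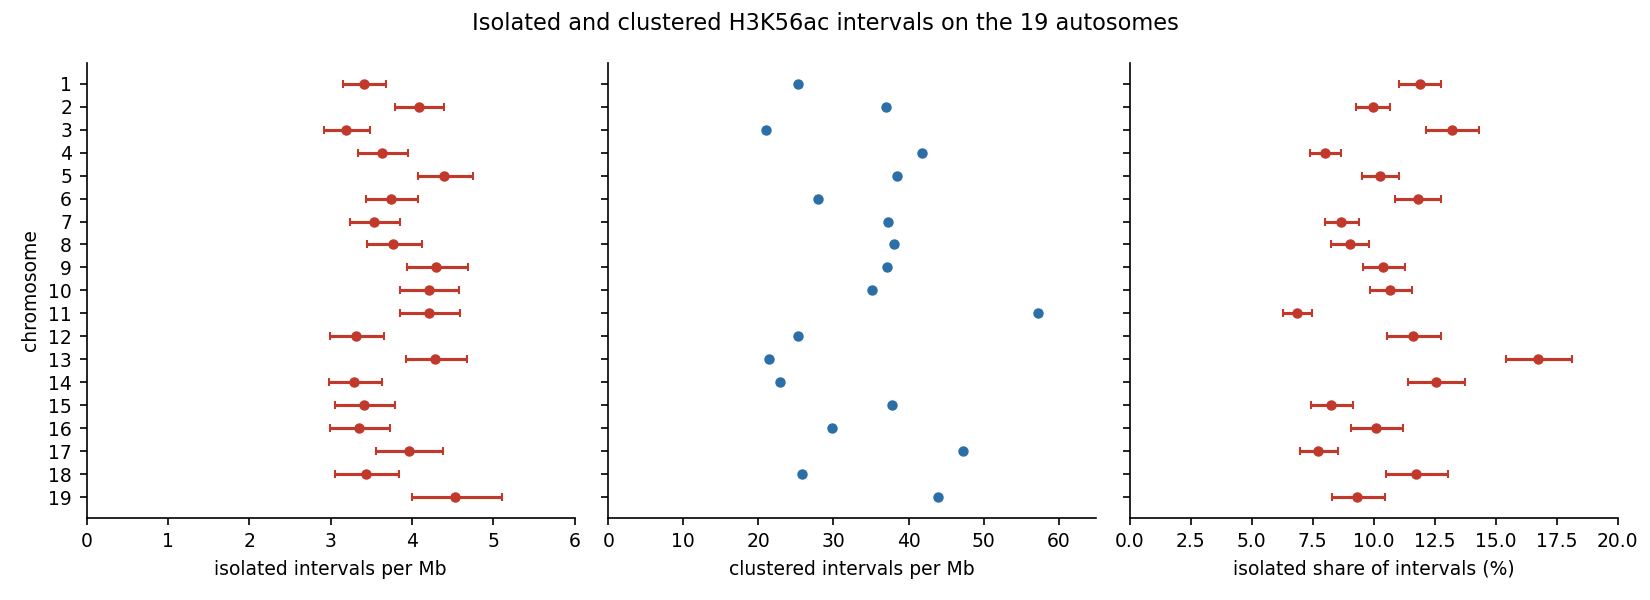
Isolated intervals per Mb (left), clustered intervals per Mb (middle) and isolated share of all intervals (%, right) for each of the 19 autosomes of 1 library. Bars are 95% exact Poisson (left) and binomial (right) intervals for counting error. The isolated density lies between 3.19 and 4.53 per Mb, while the clustered density runs from 21.0 to 57.2 per Mb.

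Isolated intervals lay in sparser megabases than clustered ones. The median number of other intervals in the same 1 Mb bin was 40 (quartiles 17 and 80) for isolated and 95 (52 and 148) for clustered intervals, a 2.38-fold difference, and the isolated median was lower on all 19 autosomes. In a window of 500 kb to either side the medians were 41 and 99. Of the isolated intervals, 69.1% lay in bins with more than the median number of intervals, which was 22 over the 2170 bins that held any, as did 92.5% of clustered intervals. Bins with few intervals can hold only few members, so a large share above the median follows in part from the ranking itself. Clustered intervals count each other, and a bin can be dense through 1 cluster: with each joined cluster counted once, the difference was 1.31-fold. The rule itself places members where intervals are sparse at the scale of its distance, so these values carry no test.

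Classed by the number of intervals in the bin, the isolated share fell steeply while the number of isolated intervals rose and then levelled off. In bins of 1 to 5 intervals (510 bins), 56.5% of intervals were isolated (53.8 to 59.2), and there were 1.47 ± 1.10 isolated intervals per bin (SD over bins). Bins of 6 to 14 intervals (388) had 30.0% and 2.91 ± 1.84 per bin, and bins of 15 to 34 (418) had 20.7% and 4.84 ± 2.50. In bins of 35 to 73 (430) the share was 12.1%, with 6.13 ± 2.66 isolated intervals per bin. The densest class, 74 to 365 intervals (424 bins), had 4.74% and 5.998 ± 2.70 per bin, although joined clusters rose from 8.22 to 13.5 per bin between these last 2 classes. The rule's minimum gap limits how many members fit beside other intervals in a dense bin, and its part in the levelling off was not tested. The densest class held 28.0% of all isolated intervals, against 62.9% of all clustered ones. The sparsest held 8.26% of the isolated and 0.711% of the clustered intervals.

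Across these classes the mean width of isolated intervals stayed close to that of the whole set, and that of clustered intervals rose. Mean width of isolated intervals was 97.2 bp in the sparsest class, then 103, 101 and 102 bp, and 104 bp in the densest, and the share at 50 bp lay between 48.0% and 50.3%. Clustered intervals widened from 142 bp in the sparsest class through 154, 167 and 182 bp to 203 bp in the densest. The share of clustered intervals of 500 bp or more rose from 2.43% to 8.70% along the same classes, while that of isolated intervals was 0.400% in the sparsest class and between 0.759% and 0.973% in the others. In each class, isolated intervals had the lower mean.

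**Figure D5:**
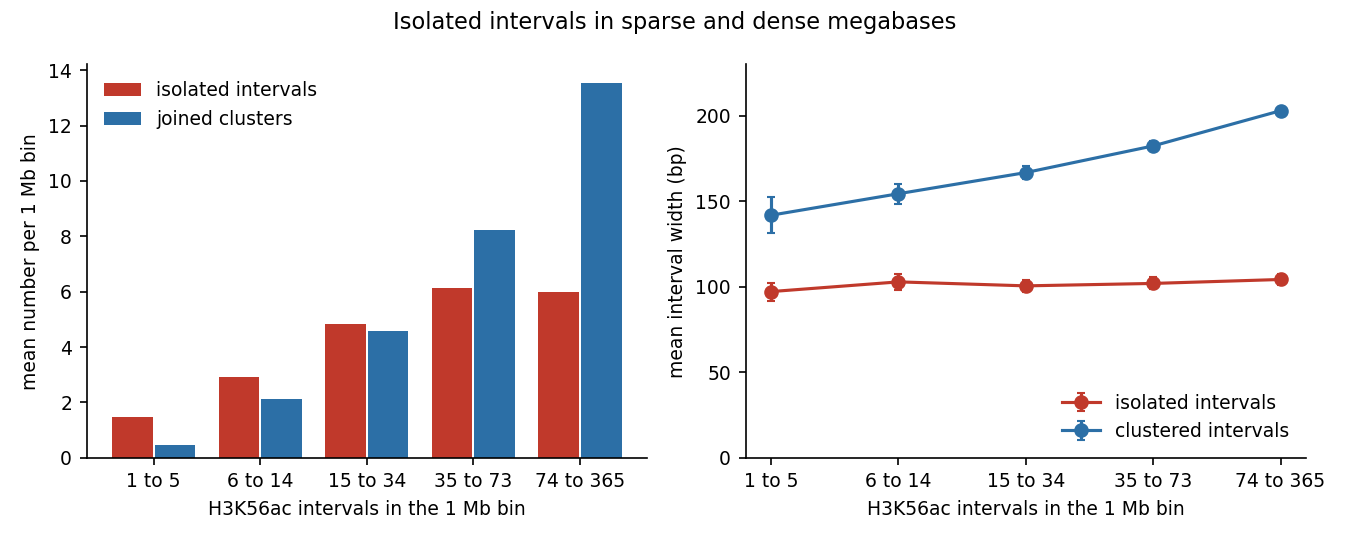
Mean number of isolated intervals and of joined clusters per 1 Mb bin (left) and mean interval width in bp (right), for 5 classes of bins by the number of intervals they hold, in 1 library. Bars on the right are 95% intervals that treat intervals as independent. Isolated intervals level off near 6 per bin and stay between 97.2 and 104 bp wide, while clustered intervals widen from 142 to 203 bp.

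Isolated intervals were present in most megabases where the list had any interval. They occurred in 2044 of the 2170 bins with an interval (94.2%), a number that includes bins holding isolated intervals alone. Presence went with the number of intervals in the bin. Bins without an isolated interval were 15.3% of those with 1 to 5 intervals and 0.708% of those with 74 to 365. In 287 bins every interval was isolated, 520 in all, and in 159 of these bins there was just 1 interval. The largest number in a bin, named after its value was seen, was 18, on chromosome 8 from 127000001 to 128000000, where the list had 68 intervals in all. Over all 2423 bins the variance of the isolated count was 2.45 times its mean, against 5.37 for joined clusters and 67.4 for clustered intervals, the lowest ratio of the 3, and the minimum gap of the rule in itself lowers it. The bin with the most intervals of all, on chromosome 11, also held an isolated interval, 450 bp wide from 117568651 to 117569100, with 364 other intervals in the bin and gaps of 20.2 and 23.4 kb.

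Along the chromosomes, isolated intervals were more numerous in the last parts, less so than clustered ones. With each chromosome divided into 10 equal parts between its first and last interval, the first parts, next to the centromere in mouse, held 818 isolated intervals in all and the last parts 1230, a 1.50-fold difference. For clustered intervals the numbers were 5376 and 12934, a 2.41-fold difference. The isolated share was 13.2% (12.4 to 14.1) in the first parts and 8.68% (8.23 to 9.16) in the last, without a steady trend between them. It was 9.75% in the second parts, 12.6% in the third, 10.3% to 11.3% in the next 4 and 8.58% to 8.92% in the eighth and ninth. The isolated counts lay between 775 and 956 in the first 8 parts and were 1075 and 1230 in the last 2.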

How the data were processed

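H3K56ac ChIP-seq of E14Tg2a cells gave 1 deposited interval list, with a chromosome, a start and an end in bp per interval and no other value. Per the submitters' processing notes, Bowtie and the build mm9 were used. What program made the intervals, with which threshold and with what use of the input library, is not given in the sources used here. Depth is unknown. All starts and ends fit a 50 bp grid counted from 1 with the end included.

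The members and all measures were chosen with earlier results of these data known. Intervals were joined where the gap was below 12500 bp, and those left alone on chromosomes 1 to 19 were the members. Bins of 1 Mb begin at position 1, and the 5 classes of bins were cut at the quintiles of the bins that held an interval. Named regions are the 5 widest members, the 5 with the largest gap to the nearer neighbour and the member in the fullest bin. Exact intervals (95%) reflect counting error alone, as if list entries were independent. No test was made. Gene context, sequence and mappability are not given, since the reference tables at hand are of another build. Code was checked on built lists with known answers. Tables were computed with pandas 2.3.3, numpy 2.4.6 and scipy 1.17.1 under Python 3.11.15, and plots were drawn with matplotlib 3.10.9.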

Additional observations from a re-analysis of the deposited data

How the results depend on the processing

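Of 33 alternative values, 14 stayed near the value reported and 19 moved. Only the ratios of clustered to isolated intervals in width and bin count have a direction, and 0 of them reversed. The rule itself favours the direction of the bin count ratio. A value counted as near when it differed by less than the SD over the 19 autosomes, for the isolated share when it lay in its exact interval, and for the number of isolated intervals and the highest over lowest share when it was within 1.5 times. The joining distance set the number of isolated intervals (9083), which was 16076 (17.8% of intervals) at 5 kb and 5123 (5.68%) at 25 kb. It also set the median distance to a joined cluster, 28.9 kb and 76.1 kb, and the ratio of clustered to isolated intervals in median bin count, 1.73 and 3.48. The ratio of mean widths and the 50 bp share stayed near at both distances. Merging intervals below 500 bp gave an isolated share of 15.7%, a width ratio of 2.06 and 43.2% at 50 bp. Without the 50 bp intervals the isolated share was 11.9% and the width ratio 1.60, and against clusters of 2 alone the ratio was 1.24. With X included the isolated share was 10.4%. The bin count ratio was 3.17 with bins of 0.5 Mb, 1.89 with 2 Mb and 1.31 with each joined cluster counted once. The median distance to clusters of 5 or more was 132.8 kb. Without read counts, weak sites missed beside an isolated interval cannot be told from absent ones.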
